A study of Homo sapiens with 12 samples.

Results

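The genes examined here encode the initiation and elongation factors of translation outside the eIF4 family: eIF1, eIF2, eIF3, eIF5, eIF6, eEF1 and eEF2, with the kinases, exchange factors and methyltransferases that share their names. They were chosen by symbol alone, as every gene whose symbol begins with EIF1, EIF2, EIF3, EIF5, EIF6, EEF1 or EEF2. Of 160 such symbols, 100 pseudogenes, 4 antisense or divergent transcripts and 1 Y-linked gene were left out, and 55 genes remained of 58735 in the count table. All 55 are protein coding, and they fall into 11 groups by factor complex. eIF3 has 14 genes, eIF2 with alternative carriers of initiator tRNA 6, eEF1 6, the methyltransferases 6, eIF2B 5, scanning and subunit joining 5, the eIF2 kinases 4, eIF5A 3, eEF2 with its kinase 2 and eIF6 1. A further 3 genes carry such a name without being a factor subunit. EEF1E1, a member of the multisynthetase complex, was counted in the eEF1 group.

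The libraries come from 293T4A cells, a human embryonic kidney line (293T) with a lentiviral construct that expresses 4EBP1-4A upon doxycycline treatment and was enriched by sorting for GFP. 4EBP1-4A is a form of the cap-binding inhibitor 4EBP1 with alanines in place of phosphorylated residues, so that it stays bound to eIF4E. RNA-seq of total RNA and Ribo-seq were each done on 3 cultures treated with DMSO and 3 treated with doxycycline at 2 mg/mL, which gives 12 libraries. The treatment lasted 12 h by the sample labels and the methods of the study, 2 h by the series text and longer than either by the study's results text. Which of these holds was not settled here. The DMSO cultures carry the construct too, and no doxycycline library without it was analysed here, so an effect of the drug and an effect of the construct cannot be told apart. In bulk libraries, fewer cells with an mRNA and less of it per cell cannot be told apart either.

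A ribosome begins translation when eIF1, eIF1A and eIF3 hold the small subunit open, eIF2 brings the initiator tRNA as a complex with GTP, and eIF5 and eIF5B complete the joining of the large subunit. eIF2B reloads eIF2 with GTP, and the eIF2 kinases stop this reloading under stress. In elongation, eEF1A delivers aminoacyl-tRNAs, the eEF1B subunits recharge eEF1A, and eEF2 moves the ribosome along the mRNA. Many of these mRNAs begin with a C followed by a run of pyrimidines, the 5′ terminal oligopyrimidine (TOP) motif, and the translation of TOP mRNAs is known to depend on mTOR and to be sensitive to 4EBP1.

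To show this feature, the start sites in RefSeq (GRCh38.p14) were read for the members, of which 41 had an entry. A C followed by at least 4 pyrimidines (C or T), with the C within 5 bases of the start, was found on the gene's strand for 16 of the 41. Of all 27305 promoters in that table, 21.1% hold such a run. The windows below cover 20 bases before the start and 20 from it onwards, with the run in capitals. The first 5 are factors with a run, and the last 2, for comparison, are members that are called in RNA-seq and have no such run in this window. Other members that recur in the results, EIF2S2 and EIF3A, are named without a window.
EEF1A1, chr6:73521013-73521052, minus strand: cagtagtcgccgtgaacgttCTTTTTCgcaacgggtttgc
EEF2, chr19:3985444-3985483, minus strand: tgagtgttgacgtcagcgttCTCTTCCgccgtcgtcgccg
EIF3D, chr22:36529147-36529186, minus strand: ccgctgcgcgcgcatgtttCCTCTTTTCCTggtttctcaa
EIF3F, chr11:7987317-7987356, plus strand: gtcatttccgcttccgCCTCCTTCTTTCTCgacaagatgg
EIF2S3, chrX:24054936-24054975, plus strand: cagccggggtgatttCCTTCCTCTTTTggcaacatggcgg
EIF3B, chr7:2354807-2354846, plus strand: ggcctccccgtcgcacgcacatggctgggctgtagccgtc
EIF1AX, chrX:20141819-20141858, minus strand: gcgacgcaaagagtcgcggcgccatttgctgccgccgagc
The run began exactly at the annotated start in EEF1A1 and EEF2, and shortly before it in EIF3D, EIF3F and EIF2S3. A run is a match of letters and not a measured start of transcription. Among the members tested in RNA-seq, the 15 with a run had a median log2 change of 0.02 without doxycycline replicate 3, and the 23 without a run had a median of -0.02. With all 6 libraries the medians were -0.17 and -0.03, and the 15 mRNAs with a run have a lower median GC content, 42.5% against 46.3%.

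Between 21687906 and 57824136 reads of each RNA-seq library fell on genes. Doxycycline replicate 3 stood apart. It had the fewest reads on genes, and these were 5.94% of its reads, against 19.7% to 30.8% in the other 5. Yet its total was the highest, 364835992 reads. Of these, 88.4% were not uniquely aligned, against 54.9% to 69.9% in the other 5. Its correlation with the other libraries was 0.968 to 0.985 (Pearson r across genes on a log scale), whereas every other pair reached at least 0.995. The share of reads on genes was lower in each doxycycline library (22.9%, 19.7% and 5.94%) than in each DMSO library (30.8%, 25.2% and 28.3%). The RNA-seq results are therefore given both with all 6 libraries and without doxycycline replicate 3. EIF4EBP1, the gene of the construct, read 156 to 169 CPM (reads scaled to a common library size) in DMSO and 260 to 281 CPM in doxycycline, with a log2 fold change of 0.75 ± 0.06 (SE) without replicate 3 (edgeR's quasi-likelihood test, adjusted p = 1.19e-05). Over 6 libraries it was 0.75 ± 0.10 with an adjusted p of 0.33, so that EIF4EBP1 itself was not called there. All 7 marker genes of 293T cells were above 1 CPM in every library, and the summed level of 3 blood markers never exceeded 0.256 CPM. The 8 skin markers summed to 5.24 to 5.84 CPM in DMSO and 2.37 to 5.07 CPM in doxycycline, and 3 of the 8 were at 0 reads throughout.

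Before the comparison, the levels in the DMSO libraries show how these genes are expressed in 293T cells. Levels are given as CPM per kb of the reference transcript, as mean ± SD (n = 3), so that genes of different length can be set side by side. EEF2 was far above every other member at 1329.8 ± 59.5. The next were EIF3I at 215 ± 4.33, EIF3K at 205 ± 4.50, EIF3D at 192 ± 2.06, EIF5A at 181 ± 5.88 and EIF3G at 180 ± 1.68. EIF5A, the factor that relieves stalled peptide bond formation, and EIF3G did not differ beyond their spread.

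Within eIF3, the scaffold on which the other early factors gather, the levels fell into a high and a low range. EIF3E (148 ± 10.9) and EIF3B (128 ± 2.61) were above 100, while EIF3L (67.7 ± 3.60), EIF3A (62.3 ± 3.23), EIF3M (54.9 ± 2.27), EIF3H (39.0 ± 1.48), EIF3J (22.9 ± 0.73) and EIF3F (17.0 ± 0.41) were below 70. EIF3L and EIF3A did not differ beyond their spread. The lengths come from a single reference transcript per gene, which for EIF3F has 6920 bases, and a shorter form in these cells would raise its level per kb.

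A few members had levels that the counting of uniquely aligned reads limits. EIF3C read only 1.23 ± 0.07 CPM per kb, and its near copy EIF3CL had 0.01. Only 19.8% of the 31-base words of either transcript occur at a single place in GRCh38, or, for words across an exon junction, nowhere in it. EEF1G, the gamma subunit of eEF1B, had 2 reads over the 6 libraries. Of its exon bases, 99.7% also belong to a readthrough gene on the same strand (ENSG00000255508), which had 28, 24 and 23 reads in DMSO and 24, 21 and 19 in doxycycline. The share of single-place words was also under 60% for EEF1B2 (19.0%), EIF5AL1 (26.5%), EIF5A (39.2%), EIF1AX (41.6%), EEF2KMT (43.2%), EEF1A1 (47.3%), EIF2S2 (55.5%) and EIF2S3 (55.5%). Levels of these genes are therefore uncertain, and how much they understate the mRNA was not tested. EEF1A1, whose protein is among the most abundant in most cells, read 103 ± 7.40 CPM per kb here, below EEF1D (164 ± 5.51) and close to EEF1B2 (97.1 ± 5.90).

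**Figure D1:**
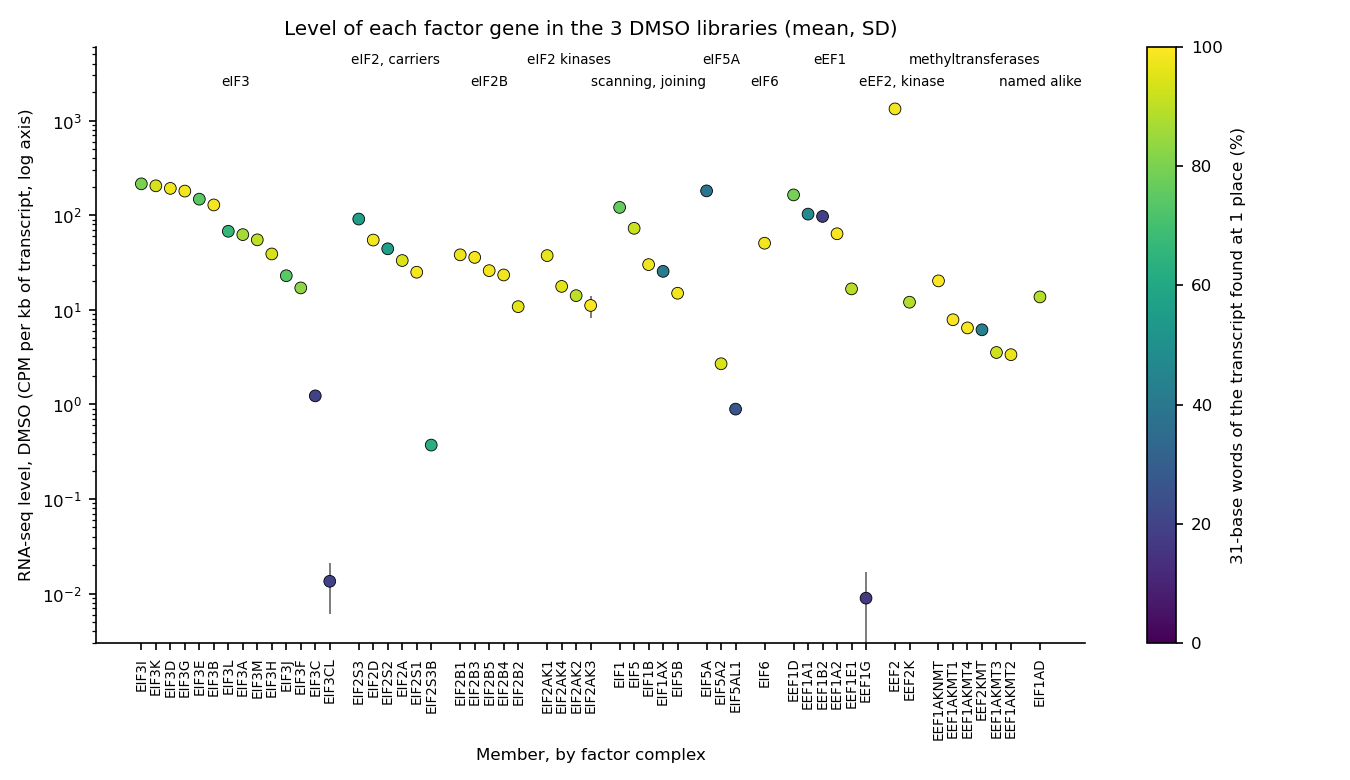
Level of each member in the 3 DMSO libraries, in CPM per kb of reference transcript on a log axis, by factor complex (point: mean, bar: SD). The colour gives the share of 31-base words of the transcript found at a single place. EEF2 is highest at 1329.8, and EIF3C (1.23), EIF3CL and EEF1G lie far below their partners with a share under 20%. The 2 readthrough members with 0 reads are not drawn.

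The first comparison asked whether the mRNAs of these factors changed upon induction of 4EBP1-4A, with the 6 RNA-seq libraries. Of the 55 members, 51 had at least 10 reads in at least 3 libraries and were tested. EEF1G, EIF3CL and the readthrough genes EEF1AKMT4-ECE2 and EEF1E1-BLOC1S5 were not. No member was called at an adjusted p of 0.05 (edgeR's quasi-likelihood test, p-values adjusted by Benjamini and Hochberg), and of all 20552 genes tested 0% were called in either direction. At an unadjusted p of 0.05, 3 members were higher and 2 lower, beside 1969 and 848 of all genes. DESeq2's Wald test called 0 members as well, and 1 gene higher and 2 lower of all. The median log2 change of the 51 was -0.11, beside -0.04 over all genes.

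limma's voom fit, which gives each library a weight by its spread, gave doxycycline replicate 3 the lowest weight, 0.077, and doxycycline replicate 2 the highest, 4.48. It called 10 members higher and 12 lower, or 19.6% and 23.5% of those tested, beside 16.6% and 17.3% of all genes. The groups did not overlap for 11 members that were higher in every doxycycline library (21.6%, beside 17.7% of all genes) and 12 that were lower (23.5%, beside 20.8%). Both shares lie near those of all genes.

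Without doxycycline replicate 3, 4 of the 51 members were called. EIF3B rose, and EIF2S2, EIF1AX and EEF1A1 fell. That is 1.96% higher, beside 3.40% of all 20459 genes tested, and 5.88% lower, beside 4.03%, so neither share is far from that of all genes. All changes were small, with log2 fold changes from -0.33 to 0.27 over the 51 members, and the largest was 1.26-fold. The median was -0.02, with 25 members above 0 and 26 below, beside a median of -0.01 over all genes. All 4 calls were lost when DMSO replicate 3 was left out as well, a fit that called 396 genes higher and 386 lower of all 20109. Without a further doxycycline library a single one is left, so no calls are given for such a fit. The share of single-place words was 98.7% for EIF3B, but 55.5% for EIF2S2, 41.6% for EIF1AX and 47.3% for EEF1A1. Reads not uniquely aligned were 54.9% to 62.3% in the DMSO libraries, and 65.4% and 69.9% in doxycycline replicates 1 and 2. Whether this difference bears on the changes of these genes was not tested.

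EIF3B encodes the eIF3 subunit that carries much of the scaffold and contacts the small ribosomal subunit. Its locus on GRCh38 is chromosome 7, 2354086 to 2380745, plus strand (ENSG00000106263). Its normalized level was 395, 406 and 391 CPM in DMSO and 458, 501 and 566 CPM in doxycycline. All doxycycline values exceeded all DMSO values, and the spread in DMSO was 8.07 CPM (SD). The log2 fold change was 0.27 ± 0.06 (SE) with an adjusted p of 0.021 without doxycycline replicate 3 (edgeR), and 0.35 ± 0.11 with an adjusted p of 0.33 with it.

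EIF2S2 encodes the beta subunit of eIF2 (chromosome 20, 34088309 to 34112243, minus strand, ENSG00000125977). Its level was 114, 108 and 117 CPM in DMSO and 97.3, 88.3 and 67.2 CPM in doxycycline. The groups did not overlap, and replicate 3 was the lowest. The log2 fold change was -0.28 ± 0.07 with an adjusted p of 0.023 without doxycycline replicate 3 (edgeR), and -0.42 ± 0.15 with an adjusted p of 0.33 over 6 libraries.

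EIF1AX encodes eIF1A, which keeps the scanning ribosome in its open state (chromosome X, 20124525 to 20141838, minus strand, ENSG00000173674). It read 117, 106 and 115 CPM in DMSO and 101, 83.2 and 42.6 CPM in doxycycline. All doxycycline values were below the DMSO values, and replicate 3 was far below the other two. The log2 fold change was -0.29 ± 0.08 with an adjusted p of 0.033 without doxycycline replicate 3 (edgeR), and -0.57 ± 0.28 with an adjusted p of 0.33 over 6 libraries.

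EEF1A1 encodes the carrier of aminoacyl-tRNA in most tissues (chromosome 6, 73489308 to 73525587, minus strand, ENSG00000156508). It read 385, 333 and 364 CPM in DMSO and 311, 305 and 188 CPM in doxycycline. The groups did not overlap, although DMSO replicate 2 lay nearer to the first doxycycline libraries than to DMSO replicate 1. The log2 fold change was -0.23 ± 0.07 with an adjusted p of 0.046 without doxycycline replicate 3 (edgeR), just inside the threshold, and -0.43 ± 0.19 with an adjusted p of 0.33 over 6 libraries. With DESeq2's size factors in the same test the adjusted p was 0.054. With library totals as the scaling, the directions of all 4 called members were the same, but EIF1AX (adjusted p = 0.059, edgeR) and EEF1A1 (adjusted p = 0.12) were no longer called.

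**Figure D2:**
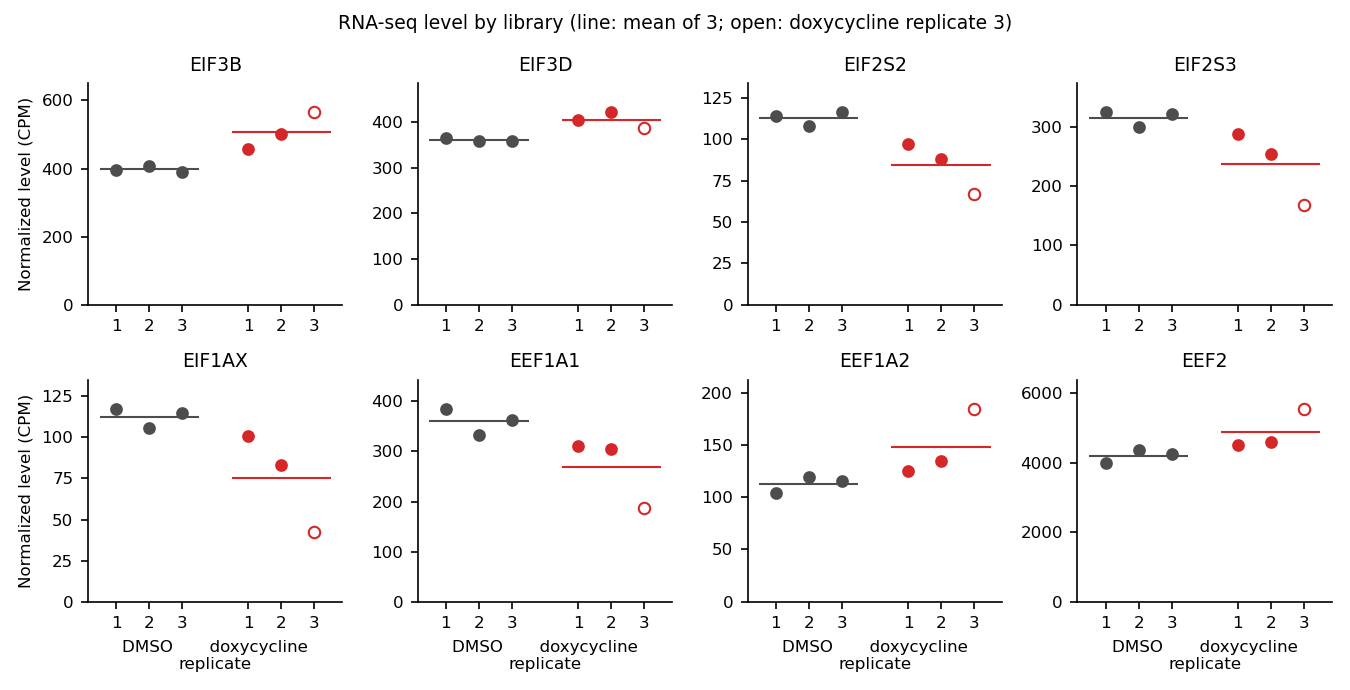
Normalized RNA-seq level (CPM, axis from 0) of 8 members in each library, DMSO in grey and doxycycline in red, with doxycycline replicate 3 as an open point and lines at the means of 3. EIF3B lies above its DMSO values in every doxycycline library, EIF2S2, EIF2S3, EIF1AX and EEF1A1 lie below theirs, and replicate 3 is the farthest out in every panel but that of EIF3D.

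Within eIF3, 1 of 13 tested members rose and none fell without doxycycline replicate 3, with log2 changes from -0.18 to 0.27 and a median of 0.03. EIF3D, the subunit that can bind the cap of some mRNAs, read 366, 360 and 358 CPM in DMSO and 405, 422 and 388 CPM in doxycycline. Its groups did not overlap and its log2 change was 0.19 ± 0.06, but its adjusted p, 0.054, missed the threshold (edgeR). EIF3A, the largest subunit, read 391, 431 and 424 CPM in DMSO and 480, 462 and 536 CPM in doxycycline, with a log2 change of 0.18 ± 0.06 and an adjusted p of 0.084 (edgeR). At the other end, EIF3E had a log2 change of -0.18 ± 0.07, and doxycycline replicate 1, at 282 CPM, lay within the DMSO range of 277 to 321 CPM. Over 6 libraries the log2 changes were 0.17 ± 0.09 for EIF3D, 0.25 ± 0.10 for EIF3A and -0.42 ± 0.24 for EIF3E, none of them called.

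Of the 6 genes of eIF2 and the alternative carriers, 1 fell and none rose. EIF2S3, the gamma subunit that holds GTP and the tRNA, read 325, 299 and 321 CPM in DMSO and 287, 254 and 169 CPM in doxycycline. Its groups did not overlap, and its log2 change of -0.22 ± 0.07 had an adjusted p of 0.054 (edgeR). EIF2S1, the alpha subunit on which the eIF2 kinases act, read 111, 97.2 and 103 CPM in DMSO and 105, 103 and 62.3 CPM in doxycycline. Doxycycline replicates 1 and 2 lay inside its DMSO range, and its log2 change was 0.0021 ± 0.067. EIF2A, which can bind initiator tRNA without GTP, had a log2 change of -0.25 ± 0.08 and an adjusted p of 0.062 (edgeR), and EIF2D one of 0.02 ± 0.06. The 6-library values were -0.41 ± 0.19 for EIF2S3, -0.20 ± 0.20 for EIF2S1, -0.51 ± 0.25 for EIF2A and -0.03 ± 0.10 for EIF2D, again with none called.

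No gene of eIF2B and no eIF2 kinase was called. The log2 changes of the 5 eIF2B genes lay between -0.02 (EIF2B1) and 0.18 (EIF2B4), and doxycycline replicates 1 and 2 were above all DMSO libraries in 4 of the 5. Over the same 5 libraries this held for 33.3% of the 51 members and 20.9% of all genes. EIF2B4 read 38.6, 38.7 and 37.8 CPM in DMSO and 44.1, 42.9 and 39.7 CPM in doxycycline, with an adjusted p of 0.12 (edgeR). Among the kinases, EIF2AK3 (PERK, the sensor of the endoplasmic reticulum) had the lowest log2 change of all 51 members, -0.33 ± 0.14. Its DMSO values of 40.6, 45.4 and 65.2 CPM were also the most variable of all members tested, with a coefficient of variation of 25.9%, and the groups overlapped. EIF2AK4 (GCN2, the sensor of uncharged tRNA) had a log2 change of 0.09 ± 0.06. With replicate 3 included, the log2 changes were -0.15 ± 0.14 for EIF2B1, 0.14 ± 0.10 for EIF2B4, -0.52 ± 0.25 for EIF2AK3 and 0.02 ± 0.11 for EIF2AK4.

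Among the scanning and joining factors, EIF1AX fell and the other 4 were not called. EIF5B, the GTPase of subunit joining, read 80.8, 90.4 and 86.7 CPM in DMSO and 94.3, 94.5 and 79.7 CPM in doxycycline, so that replicate 3 alone reversed the order. Its log2 change without that library was 0.13 ± 0.07. EIF6, which keeps the large subunit from joining too early, had a log2 change of 0.10 ± 0.07. EIF5A had one of 0.02 ± 0.06, and its paralog EIF5A2 one of -0.29 ± 0.10 with an adjusted p of 0.087 (edgeR). In the 6-library fit EIF5B had a log2 change of 0.06 ± 0.11, EIF6 0.06 ± 0.10, EIF5A 0.06 ± 0.10 and EIF5A2 -0.61 ± 0.33.

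Of the 6 eEF1 genes, EEF1A1 was called, and values of either sign were found among the others tested. EEF1A2, the eEF1A of muscle and neurons, read 104, 119 and 116 CPM in DMSO and 125, 135 and 185 CPM in doxycycline, all above the DMSO values, with a log2 change of 0.20 ± 0.07 and an adjusted p of 0.081 (edgeR). EEF1E1, a member of the multisynthetase complex, had a log2 change of -0.27 ± 0.11 with overlapping groups. EEF2 read 3996, 4366 and 4238 CPM in DMSO and 4520.4, 4602 and 5552 CPM in doxycycline. The groups did not overlap, but the log2 change of 0.12 ± 0.06 had an adjusted p of 0.21 (edgeR). EEF2K, the kinase that inhibits eEF2, had a log2 change of 0.10 ± 0.06. Of the 6 methyltransferases, none was called. EEF2KMT had the highest log2 change, 0.23 ± 0.08, and EEF1AKMT2 the lowest, -0.28 ± 0.09. EIF1AD, which is not a factor subunit, had a log2 change of -0.03 ± 0.07. The 6-library log2 changes of these genes were 0.39 ± 0.16 for EEF1A2, -0.55 ± 0.29 for EEF1E1, 0.22 ± 0.11 for EEF2, 0.17 ± 0.11 for EEF2K, 0.17 ± 0.11 for EEF2KMT, -0.51 ± 0.23 for EEF1AKMT2 and 0.02 ± 0.10 for EIF1AD, and none was called.

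**Figure D3:**
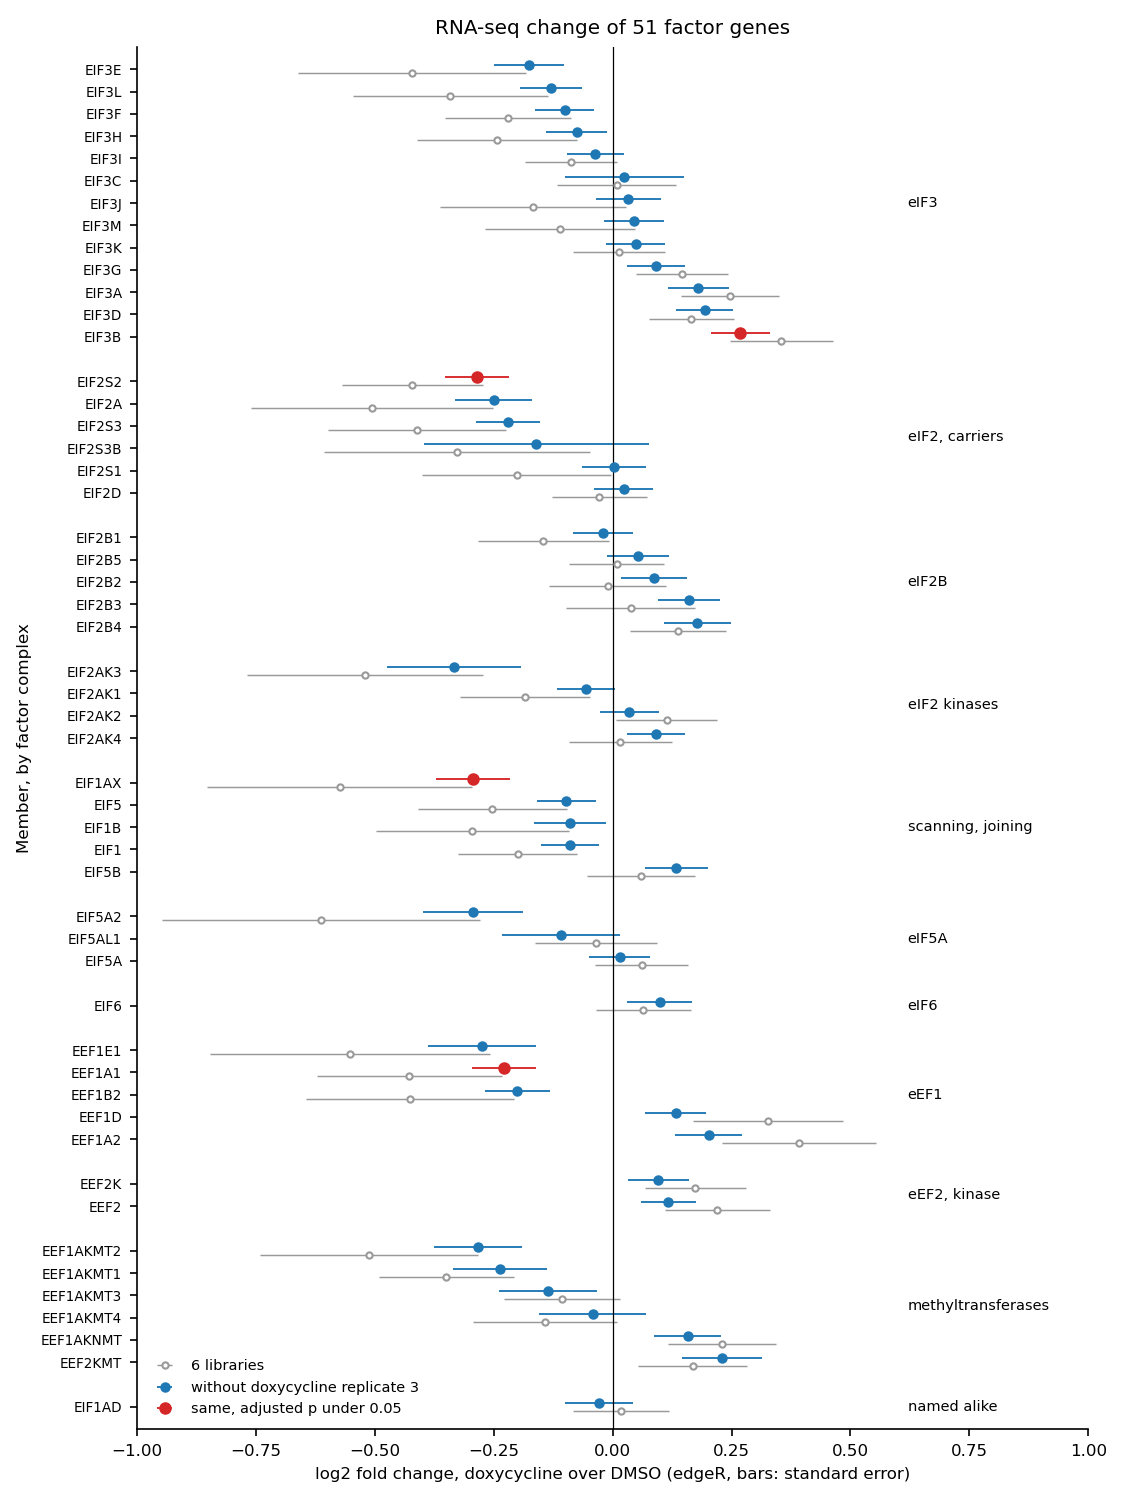
log2 fold change of doxycycline over DMSO for the 51 members tested, by factor complex, with standard errors. Filled points leave out doxycycline replicate 3, open points use 6 libraries, and red marks the 4 members with an adjusted p under 0.05 (EIF3B, EIF2S2, EIF1AX and EEF1A1). The open points mostly lie farther from 0 with longer bars.

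The changes followed the GC content of the mRNAs, over all genes as well as over the members. Across the 51 members, the log2 change without doxycycline replicate 3 had a Spearman correlation of 0.60 with the GC content of the reference transcript, and 0.71 with 6 libraries. Across all genes with a reference transcript these were 0.54 (n = 20305) and 0.67 (n = 20396). The correlation with transcript length was -0.08 over the members and -0.03 over all genes without doxycycline replicate 3. These correlations are across genes of the same libraries, which are not independent replicates. Of the 26 members with a GC content of at most 46.5%, 19 had a log2 change below 0 and their median was -0.10. Of the 25 members above it, 18 were above 0 and their median was 0.09. All genes split at the same GC content had medians of -0.12 and 0.09.

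The trend was graded by library and was present among the DMSO libraries. Against the mean of the 3 DMSO libraries, the correlation with GC content over all genes was 0.41, 0.62 and 0.73 in doxycycline replicates 1, 2 and 3. Each DMSO library against the mean of the other 2 gave -0.44, 0.40 and 0.09. The correlation of DMSO replicate 2 was close to that of doxycycline replicate 1, though the 2 were set against different references. The DMSO values are also tied to each other, since each library is compared with the other 2. DMSO replicate 2 was the DMSO library with the smallest share of reads on genes. The called EIF3B has a GC content of 56.9%, and EIF2S2, EIF1AX and EEF1A1 have 44.4%, 35.1% and 42.5%.

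To measure how much of each result moves with this trend, the trend of each library on GC content was put into the same test, a fit chosen after the data had been seen. EIF3B (log2 change 0.16 ± 0.04, adjusted p = 0.042, edgeR) and EIF2S2 (-0.22 ± 0.05, adjusted p = 0.021) stayed past the threshold. EIF1AX (-0.06 ± 0.04, adjusted p = 0.51) and EEF1A1 (-0.13 ± 0.05, adjusted p = 0.15) did not. EEF2, at 59.9% GC, went from 0.12 to -0.02, and EEF1A2, at 64.6%, from 0.20 to 0.0050.

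In this fit 9 members were called higher and 1 lower, or 17.6% and 1.96%, beside 2.03% and 1.98% of all 20305 genes. Of the 9, 5 were eIF3 subunits: EIF3A (0.26 ± 0.05, adjusted p = 0.020, edgeR), EIF3M (0.23 ± 0.04), EIF3J (0.22 ± 0.05), EIF3B and EIF3D (0.16 ± 0.04). The others were EIF5B (0.31 ± 0.07, adjusted p = 0.026, edgeR), the alpha subunit EIF2S1 (0.18 ± 0.04), the kinase EIF2AK2 (PKR, the sensor of double-stranded RNA, 0.20 ± 0.05) and the exchange factor subunit EIF2B3 (0.17 ± 0.04). Members other than EIF3B, EIF2S1 and EIF5B are named here after their values were seen. Without the correction the log2 changes were 0.05 for EIF3M, 0.03 for EIF3J, 0.0021 for EIF2S1 and 0.04 for EIF2AK2, with overlapping groups in each. They were 0.18 for EIF3A, 0.27 for EIF3B, 0.19 for EIF3D, 0.13 for EIF5B and 0.16 for EIF2B3. Of the 9, only EIF3B was called without it. The count of calls with the correction depended on single libraries. Leaving out DMSO replicate 1, 2 or 3 as well gave 2, 5 and 4 members higher and 1, 4 and 0 lower. Over all genes these fits called 132, 602 and 180 higher and 161, 667 and 166 lower. With all 6 libraries and the same correction, 0 members were called, and 10 were higher and 3 lower at an unadjusted p of 0.05, or 19.6% and 5.88%, beside 8.97% and 7.27% of all 20396 genes. Whether the GC trend arose in the cells or in the libraries was not tested.

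**Figure D4:**
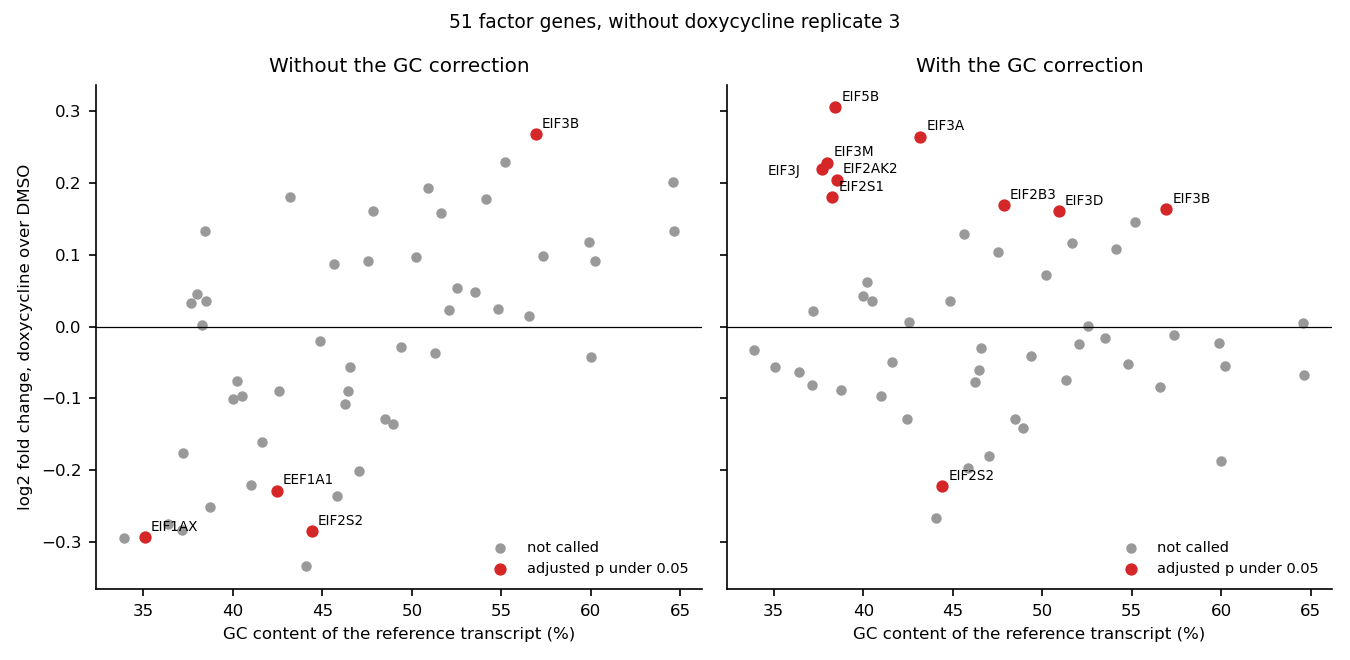
log2 fold change without doxycycline replicate 3 against the GC content (%) of the reference transcript for 51 members, without the GC correction (left) and with the trend on GC content removed in the fit (right), with called members in red. On the left the points climb with GC content. On the right they do not, EIF3B and EIF2S2 stay called, and 8 further members are called higher.

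Paralogs of a factor can be compared within a library, where scaling has no effect. EEF1A2 made up 21.2%, 26.3% and 24.1% of the reads of EEF1A1 and EEF1A2 in DMSO and 28.6%, 30.7% and 49.6% in doxycycline. The share was higher in every doxycycline library. The log2 ratio was -1.68 ± 0.20 (SD, n = 3) in DMSO and -0.84 ± 0.71 in doxycycline, a difference of 0.84, or 0.43 without doxycycline replicate 3. The exact two-sided permutation test gave p = 0.1, the smallest that 3 against 3 libraries can give, and 0.3 after Benjamini-Hochberg adjustment over 3 ratios. EEF1A2 and EEF1A1 differ widely in GC content (64.6% and 42.5%), which the ratio does not remove. They also differ in the share of single-place words (99.1% and 47.3%) and in transcript length (1773 and 3512 bases). A share of uniquely aligned reads is therefore not a share of mRNA, and how unique alignment affects the ratio was not tested.

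EIF5A2 made up 6.93%, 5.60% and 5.84% of the reads of EIF5A and EIF5A2 in DMSO and 5.72%, 4.32% and 1.78% in doxycycline, with overlapping groups (difference of log2 ratios -0.82, exact permutation p = 0.2, adjusted 0.3). The difference was -0.31 without doxycycline replicate 3. The GC content of EIF5A2 is 33.9% and that of EIF5A 56.6%, and their shares of single-place words are 94.3% and 39.2%. EIF1B made up 9.89%, 9.16% and 9.44% of the reads of EIF1 and EIF1B in DMSO and 9.91%, 9.06% and 7.40% in doxycycline (difference -0.13, exact permutation p = 0.5, adjusted 0.5). EIF1B and EIF1, with 42.6% and 46.5% GC, are the closest pair in base composition. Without doxycycline replicate 3 the difference between their groups was -0.0025.

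**Figure D5:**
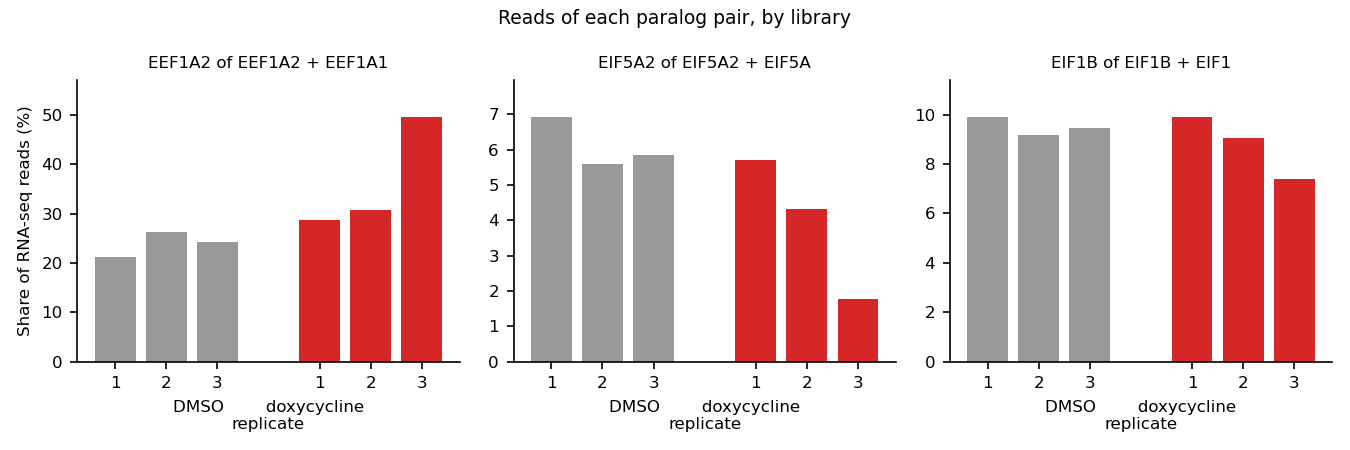
Share (%) of RNA-seq reads of each paralog pair that fell on EEF1A2, EIF5A2 and EIF1B, per library (bars from 0, DMSO in grey, doxycycline in red). The share of EEF1A2 is higher in all doxycycline libraries and reaches 49.6% in replicate 3, while the other two overlap between groups.

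A list of 36 other genes that work with these factors was examined beside them: release and recycling factors, the enzymes that modify eIF5A and eEF2, the eIF2 phosphatase with its stress response, partners of eEF1, poly(A)-binding proteins and the elongation factors for selenocysteine and mitochondria. All 36 were tested, and with 6 libraries none was called. Without doxycycline replicate 3, 2 rose and 6 fell, or 5.56% and 16.7%, beside 3.40% and 4.03% of all genes, and the median log2 change was -0.05, beside -0.01. EEFSEC, the elongation factor for selenocysteine, rose by a log2 change of 0.43 ± 0.09 (adjusted p = 0.016, edgeR), and VARS1, the valyl-tRNA synthetase bound to eEF1, by 0.37 ± 0.07 (adjusted p = 0.013).

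The 8 release and recycling genes held 3 of the calls, all lower, or 37.5% beside 4.03% of all genes, and 1 of the 3, PELO, was left with the GC correction. PELO and HBS1L, partners in the rescue of stalled ribosomes, had log2 changes of -0.27 ± 0.07 and -0.22 ± 0.06, and MCTS1, a recycling factor, one of -0.35 ± 0.09. ATF4, the transcription factor whose translation rises when eIF2 is phosphorylated, had one of -0.28 ± 0.06 (adjusted p = 0.022, edgeR). It read 488, 510 and 545 CPM in DMSO and 429, 422 and 403 CPM in doxycycline, so that the groups did not overlap. DPH6, of diphthamide synthesis on eEF2, had a log2 change of -0.36 ± 0.10, and GFM2, a mitochondrial recycling factor, one of -0.29 ± 0.07. Over 6 libraries, with none called, the log2 changes were 0.55 for EEFSEC, 0.52 for VARS1, -0.38 for PELO, -0.40 for HBS1L, -0.62 for MCTS1, -0.30 for ATF4, -0.66 for DPH6 and -0.53 for GFM2. With the GC correction and without doxycycline replicate 3, EEFSEC (0.27), VARS1 (0.20), PELO (-0.22), GFM2 (-0.17) and ATF4 (-0.33, at 53.2% GC) stayed past the threshold. HBS1L (-0.03), MCTS1 (-0.16) and DPH6 (-0.15) did not.

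The second question was whether ribosomes on these mRNAs changed, since 4EBP1 acts on translation. Ribo-seq reads come from mRNA fragments under a ribosome, and dividing them by the RNA-seq level gives the translational efficiency (TE). The 55 members had 2614 Ribo-seq reads in all 6 libraries, of 3638279 on genes, beside 3081667 RNA-seq reads of the same genes. EEF1A1 held 95.6% of them. Its reads were 0, 5 and 1320 in DMSO and 1, 1172 and 1 in doxycycline, so that DMSO replicate 3 and doxycycline replicate 2 held almost all and every other library at most 5. The other 54 members had 115 reads together.

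Of the 55, 28 members had no Ribo-seq read, 22 had 1 to 9, and 5 had at least 10 and were tested. A count of 0 allows up to 3 reads per library, which is 2.99 to 14.3 CPM in these libraries. EEF2, which had the highest RNA-seq level per kb of the members by uniquely aligned reads, had 0, 1 and 1 reads in DMSO and 0, 0 and 8 in doxycycline. EIF2S1 had 0, 2 and 9 in DMSO and 1, 0 and 0 in doxycycline, and EEF1D had 0, 9 and 2 and 0, 0 and 2. In each of the 5 tested, most reads came from 1 or 2 libraries.

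No member was called in TE or in Ribo-seq (edgeR), beside 0.150% of 1334 genes tested in TE and 0% of 1607 in Ribo-seq. No member reached an unadjusted p of 0.05 in either test. DESeq2's Wald test called 0 members in both. At an unadjusted p of 0.05 in its TE test, 0 of the 5 members were higher and 2 lower, beside 127 and 194 of all 1334 genes. The standard errors of the log2 TE changes ran from 1.67 for EIF2S1, with a log2 change of -2.80, to 3.10 for EEF1A1, with 0.87. A change in the ribosome load of these factors, in either direction, was not detectable at this depth, and this holds for the mRNAs with a pyrimidine run shown above.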

How the data were processed

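RNA-seq and Ribo-seq counts of 12 libraries, 3 in each of 4 groups that follow the sample labels, were used. The raw counts per gene were deposited by the authors, who aligned with STAR and kept uniquely aligned reads that fell on exons. The methods name GRCh38 for mapping and GRCh37 for a part of the annotation, and the labels name GRCh37. Whether strand was used in counting is not given in the sources used here, so reads of overlapping genes on opposite strands cannot be told apart. A second deposited table holds the authors' own TE ratios, fold changes and p-values, of which none was used, only its gene symbols. All columns of counts were mapped to a sample. Reads not counted on a gene (69.2% to 94.1% in RNA-seq, 97.1% to 99.1% in Ribo-seq) were kept out of library sizes. They include reads that were not uniquely aligned, which were 54.9% to 88.4% of all RNA-seq reads and 30.6% to 57.2% of all Ribo-seq reads.

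Libraries were scaled with TMM factors over all genes and tested with edgeR 4.0.16 (quasi-likelihood F-test, Benjamini-Hochberg adjustment over all genes, threshold 0.05) in R 4.3.3. RNA-seq genes needed at least 10 reads in at least 3 libraries, and TE and Ribo-seq genes at least 10 reads summed per assay. SE is the log2 change divided by the root of the F statistic. The TE change was fitted as a treatment-by-assay interaction over the 12 libraries. For paralog ratios a two-sided exact permutation test was used. The GC correction put the lowess trend (span 0.3) of each library on the GC content of the reference transcript into the offset. Coordinates, transcripts and lengths came from GENCODE release 44 (GRCh38), which matched 58207 of 58735 genes (99.1%), and start sites from RefSeq. Alternatives used limma 3.58.1 and DESeq2 1.42.0. The scripts ran on Python 3.11.15 with scipy 1.17.1, pandas 2.3.3, numpy 2.4.6 and matplotlib 3.10.9, and the tests were tried on simulated data.

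The members, gene lists and tests were chosen with earlier results of these data known. Named members are those called in either RNA-seq test, the largest rise and fall of each complex without doxycycline replicate 3, and EEF1A1, EEF1A2, EEF2, EEF2K, EIF5A, EIF5A2 and EIF2S1. Any member may be named for its level per kb, and other genes of the pathway where called. EIF3A, EIF3D, EIF2S3, EIF2A and the other members with values were added after the values were seen. The 3 samples of a group are taken as separate cultures. Where they were not, p-values measure technical spread only. The floor of 3 reads covers counting error only.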

Additional observations from a re-analysis of the deposited data

How the results depend on the processing

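With 6 libraries, the count of 0 members called higher and 0 lower changed under voom with sample weights (10 and 12) and when a library was left out (0 to 1 higher and 0 to 3 lower, with the calls appearing without doxycycline replicate 3). Without doxycycline replicate 3, where 1 member was higher and 3 lower, 696 and 825 of all 20459 genes were called. The counts of members, with those of all genes in brackets, moved with the processing. They were 2 and 2 with DESeq2's size factors (734 and 677) and with TMM factors over the genes tested (769 and 673). DESeq2's Wald test gave 4 and 5 (996 and 1054), and library totals 7 and 1 (1442 and 339). A minimum of 60 reads gave 2 and 3 (677 and 755), and the GC correction 9 and 1 (412 and 403). Library totals moved the median of all genes to 0.10 (6 libraries) and 0.06, from -0.04 and -0.01. Leaving out DMSO replicate 1, 2 or 3 as well gave 1 and 2, 2 and 11, and 0 and 0 members. Over all genes these fits called 193 and 258, 1426 and 1550, and 396 and 386. Leaving out a further doxycycline library keeps a single one, so no calls are given for it. With the GC correction, leaving out DMSO replicate 1, 2 or 3 gave 2 and 1, 5 and 4, and 4 and 0 members. Over all genes it gave 132 and 161, 602 and 667, and 180 and 166. Whether the replicate numbers pair the libraries was not settled. Deviations of same-numbered libraries from their group means correlated at 0.46, -0.44 and 0.03. Those of DMSO replicate 1 correlated at 0.46, 0.48 and -0.51 with doxycycline replicates 1, 2 and 3. The means include doxycycline replicate 3, which stood apart, so these correlations cannot decide it. A fit with the replicate block called 9 members higher and 10 lower without doxycycline replicate 3, beside 2120 and 2613 of all 20459 genes. With 6 libraries it called 0 and 0, over members and over all genes. In TE and Ribo-seq, 0 members were called under every alternative run, the replicate block and the culture block included. The paralog differences kept their sign, with ranges of 0.43 to 1.08 for EEF1A2 over EEF1A1, -1.19 to -0.31 for EIF5A2 over EIF5A and -0.23 to -0.0025 for EIF1B over EIF1 when a library was left out. Signs of named members that turned, with none of them called in the fit they come from, were as follows. With the GC correction, the log2 change over 6 libraries was -0.014 for EEF1A2, -0.050 for EEF2, 0.018 for EIF2B1, 0.19 for EIF2S1, -0.11 for EIF5A and -0.12 for EIF6, and without doxycycline replicate 3 it was -0.023 for EEF2, 0.035 for EIF2B1, -0.024 for EIF2D, 0.022 for EIF3E, -0.084 for EIF5A and -0.011 for EIF6. EIF2D over 6 libraries was 0.011 with DESeq2's size factors and with its Wald test, 0.11 with library totals, 0.012 with TMM over the genes tested and 0.055 with voom. EIF1AD was -0.0057 with voom over 6 libraries and 0.037 with library totals without doxycycline replicate 3, where EIF2B1 was 0.045. Leaving out single libraries from the 6 gave -0.029 to 0.054 for EIF1AD, -0.030 to 0.092 for EIF2AK4, -0.078 to 0.023 for EIF2D and -0.32 to 0.0021 for EIF2S1. From the 5 it gave -0.042 to 0.0085 for EIF2B1, -0.020 to 0.065 for EIF2D, -0.041 to 0.052 for EIF2S1 and -0.044 to 0.072 for EIF5A. The cause of these differences was not tested. The sparse Ribo-seq reads limit TE, and the 4 RNA-seq calls were lost without DMSO replicate 3.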

Other observations

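Processed pseudogenes hold near copies of several of these mRNAs, and their own counts are given here as values. The 39 EEF1A1 pseudogenes had 10604 RNA-seq reads over the 6 libraries, beside 89772 for EEF1A1 itself, and 38 of the 39 had at least 1 read. Per library the pseudogenes held 2233, 1915 and 1912 reads in DMSO and 1786, 1882 and 876 in doxycycline. The 8 EEF1G pseudogenes had 407 reads, beside 2 for EEF1G. The count of EEF1G is limited by the counting, as 99.7% of its exon bases also belong to a readthrough gene. For EEF1B2 the 8 pseudogenes had 350 reads beside 19582, for EIF2S2 the 7 pseudogenes had 368 beside 27931, and for EIF1AX the 2 pseudogenes had 290 beside 27207. The 7 EIF1 pseudogenes had 40 reads beside 74110. Whether these reads came from the pseudogenes or from the mRNAs of the factors was not tested.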
